A study of Mus musculus with 4 samples.

Results

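The genes described here carry the symbols of genes for proteins of the cytosolic ribosome. They were taken by symbol from the count matrices (Rpl or Rps followed by a number and an allowed suffix, Rplp0 to Rplp2, and Rpsa), which gave 83 of the 32285 genes in the files, on 19 chromosomes and with 4 of them on the X chromosome. The rule uses the symbols alone. Single GFP-positive cells of the Tbx1 lineage were sorted from the pharyngeal region and heart of mouse embryos at E9.5 and their mRNA was read from the 3′ end in droplets, with transcripts counted by unique molecular identifiers (UMIs). There were 4 libraries, 2 of conditional heterozygotes (cHet, Tbx1Cre/+;Kmt2d F/+;GFP F/+) and 2 of conditional knockouts (cKO, Tbx1Cre/+;Kmt2d F/F;GFP F/+). The Cre gene is knocked into Tbx1, so the controls also carried 1 functional Tbx1 allele and had lost 1 Kmt2d allele in the lineage. Mice were outbred (SwissWebster in the labels, a mixed background in the study's methods), and recombination was limited to cells with a history of Tbx1 expression. Each Rep1 library pooled 4 embryos and was made with the Next GEM kit, and each Rep2 library pooled 3 embryos and was made with the GEM-X kit.

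The filtered cells numbered 33448, between 5869 and 11938 per library, with medians of 17240.5 to 22972 UMIs per cell. The library was the replicate (n = 2 per genotype), because cells of a pool carry no embryo label. Kit, embryo pool and the Cell Ranger version in the file headers changed together between replicates and cannot be told apart. A difference in sequencing run, if there was one, could not be told apart from these either. Kmt2d levels, as UMIs scaled to a common library total (CPM), were 17.4 and 15.2 in the Rep1 libraries of cHet and cKO, and 23.9 and 21.0 in those of Rep2, but UMIs from the 3′ end carry no information on recombination of the floxed exons. The study reported by RT-qPCR that Kmt2d was depleted in cKO embryos at E9.5, compared there with Tbx1Cre/+ embryos and not with cHet. The libraries of Rep1 shared 87 barcodes (12 of them in kept cells) and those of Rep2 71 (41 in kept cells).

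Ribosomal proteins form the small (Rps) and the large (Rpl) subunit together with the ribosomal RNAs. Their mRNAs are among the most abundant of a growing cell and usually begin with a cytidine and a run of pyrimidines, the terminal oligopyrimidine (TOP) tract, through which mTOR signalling controls their translation. Loss of a single copy of several of these genes causes Diamond-Blackfan anemia, and defects of ribosome production in neural crest cells cause craniofacial syndromes. Unassembled Rpl5 and Rpl11 can bind Mdm2 and stabilise p53. A few members have a paralogue of similar sequence whose use differs between tissues.

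The first 24 bases of annotated transcripts are shown for the members on which the results below turn, with the initial pyrimidine run in capitals. For each gene, the annotated transcript with the longest such run is printed, from GENCODE release M21 on GRCm38.
Rpl29: CTCTTCCggtctccggcgctgcgg
Rpl36: CTTCCTgtcccggccgccatcgga
Rps27: CCTTTCCggcggtgacgacctccc
Rps27l: Tatcccggaagttgctgaggggcg
Rpl22l1: gcacgtttttatataaaagcgtgc
Rpl7l1: Cgcagtagctgaagcaccggaaag
Rpl4: CTTTTCCTgtgggagcagccgggt
Rps2: TTCCTCTTCTTTTTgtcactagca
Rpl5: Cagccactctttctcacgtcgctt
Rpl29, Rpl36, Rps27, Rpl4 and Rps2 had a run of 6 to 14 pyrimidines, whereas the 3 paralogues Rps27l, Rpl22l1 and Rpl7l1 and the standard gene Rpl5 had at most 1 before the first purine. A run of at least 5 C or T bases opened an annotated transcript of 30 of the 83 members (36.1%), of 8 of 15 other protein-coding genes with TOP mRNAs (53.3%), of 9 of 78 genes for mitochondrial ribosomal proteins (11.5%) and of 1989 of 21630 protein-coding genes (9.2%). For the principal transcript alone the counts were 13 (15.7%), 5 (33.3%), 6 (7.69%) and 893 (4.13%). Annotated starts can lie off the true start by some bases, so a missing run says only that these letters do not open the annotated transcript.

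Rpl29 lies at chr9:106429454-106431568 on the + strand (4 exons), Rps27 at chr3:90212522-90213651 on the − strand (4 exons) and Rps27l at chr9:66946086-66949516 on the + strand (4 exons). Rpl22l1 lies at chr3:28805436-28807424 on the + strand (4 exons), Rpl7l1 at chr17:46773907-46782672 on the − strand (7 exons), and Rpl5 at chr5:107900502-107909005 on the + strand (8 exons). Many members have processed pseudogenes, and reads were not reassigned here. Of the last 400 bases of each transcript, 48 members shared at least 50% of their 50-base words with another annotated gene. The share was 100% for Rpl10, Rpl21, Rpl36a, Rpl9 and Rps12, 98.6% for Rps27, 85.2% for Rps2 and 65.8% for Rpl29, whose words occurred in 58 other genes. Their counts are therefore uncertain to the extent that such reads were dropped or split. Rpl5 and Rpl4 shared no such word, Rpl7l1 1.71% and Rps27l 28.8%.

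The members held 22.5% and 22.4% of all UMIs of the kept cells in cHet and cKO of Rep1, and 9.94% and 10.3% in Rep2. Thus the replicates differed 2.22-fold over all cells, and the genotypes of a replicate by less than 1 percentage point. In barcodes with fewer than 1000 genes, which were not used as cells, the share was 25.4% and 27.7% in Rep1 and 9.01% and 9.11% in Rep2, so the low barcodes stood above the cells in Rep1 and below them in Rep2. The cHet Rep1 library held 37093 barcodes in all and 14762 of these low ones, against 1465 to 2763 in the other libraries, and 60.0% of its UMIs lay in kept cells, against 86.1 to 91.6%. With 2 against 2 libraries an exact two-sided permutation test cannot give a p below 0.333, and no test was made of the share.

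Cells were clustered without the members, and clusters were named by markers into BrM-like (branchiomeric muscle), neuronal-like, pSHF-like and aSHF-like (posterior and anterior second heart field), cardiac muscle-like, mesenchyme-like, endothelium-like, epithelium-like and MLP-like (multilineage progenitor) cells. The groups with the lowest and the highest member share were the same in every library. Cardiac muscle-like cells were lowest in each, at 17.5% in both Rep1 libraries, 7.68% in cHet Rep2 and 8.21% in cKO Rep2, although only 33 cells stood behind the value of cKO Rep1. Neuronal-like cells held 21.2% and 21.4% in Rep1 and 8.50% and 8.70% in Rep2. BrM-like cells lay above them in each library, at 22.9%, 23.0%, 10.4% and 10.9% in the order cHet Rep1, cKO Rep1, cHet Rep2, cKO Rep2. Cluster 20, which was left unnamed, had the highest share throughout, at 24.1%, 26.6%, 13.2% and 13.2%. Its leading genes were Barx1, Dlx2, Dlx6os1, Dlx5 and Dlx6, homeobox genes and a Dlx6 antisense transcript of the pharyngeal arches. It held 61 to 106 cells per library with medians of 10962 to 28328 UMIs, and the 8 endothelial markers summed to 292 CPM in its cHet Rep1 cells against 28.3 to 55.7 CPM in the other libraries, where Cdh5, Cldn5 and Tek stood at 0 in cKO Rep1 and Cdh5, Emcn and Tek in cKO Rep2. Their part in its member share was not tested. Exact binomial 95% intervals spanned at most 0.176 percentage points in these groups and cover counting error only.

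**Figure D1:**
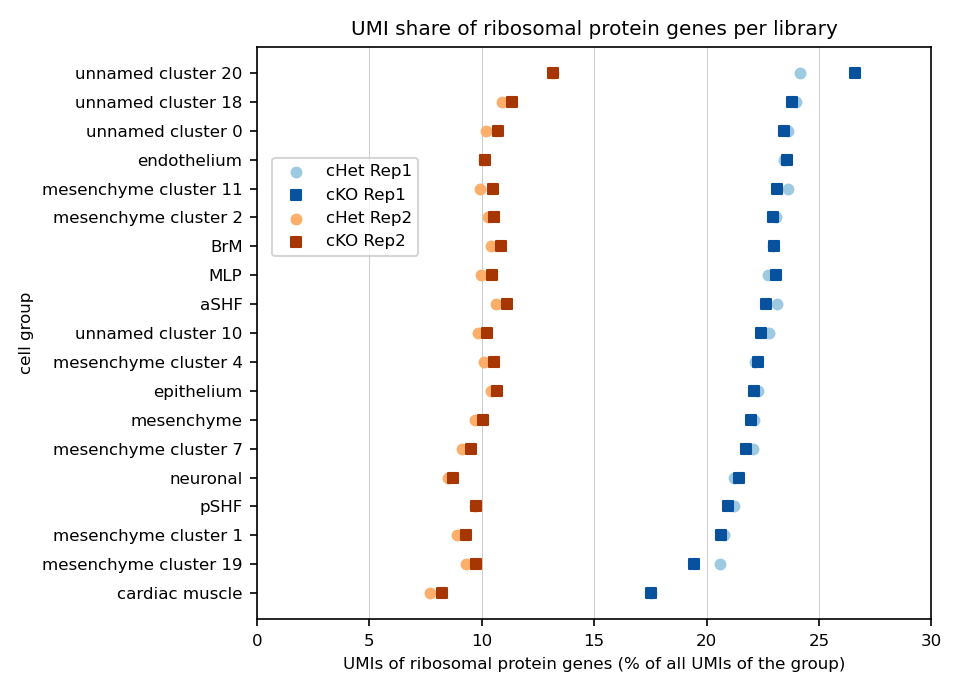
UMIs of the 83 ribosomal protein genes as a percentage of all UMIs of a group (x axis), for each cell group (y axis) and library, with circles for cHet, squares for cKO, blue for Rep1 and orange to brown for Rep2. Rep1 libraries lie between 17.5% and 26.6% and Rep2 libraries between 7.68% and 13.2%, with cardiac muscle-like cells lowest and cluster 20 highest in both.

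Single members ranged over orders of magnitude. In Rep1 high levels over all cells were those of Rpl13, with 5593 CPM in cHet and 5535 CPM in cKO, and of Rps27a, which is made as a fusion with ubiquitin, with 5513 and 5414 CPM. In Rep2 the highest was Rps2, a protein at the entry of the mRNA channel, with 6366 and 6614 CPM, followed by Rpl13 with 3146 and 3163 CPM and Rps3a1 with 3052 and 3224 CPM. The orders therefore differed between replicates. Of the 10 highest members of Rep1, 3 were among the 10 highest of Rep2, and the Spearman correlation of the 83 levels was 0.52 between replicates against 1.00 between cHet and cKO of either replicate. These points share libraries and are given as a description. At least 1000 CPM was reached by 77 members in Rep1 and by 45 in Rep2, and 3 members (Rpl39l, Rpl3l and Rpl10l) had a mean under 10 CPM.

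Rpl29, a protein of the large subunit, differed most between replicates. It stood at 1436 and 1529 CPM in cHet and cKO of Rep1 and at 23.7 and 24.3 CPM in Rep2, a ratio of 61.8. Rps29, Rpl36 and Rps28 followed at ratios of 10.2, 8.76 and 8.15, and for each of these the lowest Rep1 value lay above the highest Rep2 value (1932 against 271 CPM for Rps28). The opposite order was seen for Rpl5, with 1386 and 1354 CPM in Rep1 and 2418 and 2301 CPM in Rep2, which moved it from rank 76 to rank 8 of the members. Rps2, Rpl7l1, Rpl7, Rpl7a, Rpl4 and Rpl13a were also higher in CPM in Rep2 than in Rep1. For each of these genes the replicates did not overlap, which describes genes picked by their replicate difference and is not a test.

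The replicates were compared gene by gene with edgeR's quasi-likelihood test on UMIs summed per library and group, with TMM scaling, a term for genotype and Benjamini-Hochberg adjustment (called at an adjusted p under 0.05). In mesenchyme-like cells 76 of 81 tested members were called, 75 lower and 1 higher in Rep2, against 58.7% of all genes tested, and their median log2 fold change was −1.89 against −0.01 for all genes. BrM-like cells gave 74 of 80 (45.9% of all genes), neuronal-like cells 79 (47.3%), pSHF-like cells 74 (38.3%), MLP-like cells 74 (50.1%), the aSHF with cardiac muscle 74 (42.8%), endothelium 78 (45.6%) and epithelium 74 (37.2%). Rpl5 was the 1 member called higher in each of the 8 groups, and 73 members were called lower in all 8. Rpl13a, Rpl4, Rpl7, Rpl7a, Rpl7l1 and Rps2 were called lower in some groups or in none, and Rpl10l, Rpl39l and Rpl3l were too low to be tested in every group. With plain library totals in place of TMM the median of all genes moved to between 0.29 and 0.41 in these groups and 6 or 7 members were called higher, except in neuronal-like cells with 1. The difference of a member from its Rep1 level hardly depended on the cell type: the distance between its lowest and highest log2 fold change over the 8 groups had a median of 0.22 and a maximum of 0.65 (80 members), against a range of 6.69 over the members within mesenchyme-like cells.

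The size of the replicate difference followed the length of the coding sequence. Of the members tested in mesenchyme-like cells, the 11 with fewer than 300 coding bases had a median log2 fold change (Rep2 over Rep1) of −3.15. The medians were −2.25 for the 28 members from 300 to below 450 bases, −1.59 for the 19 from 450 to below 600, −0.57 for the 20 from 600 to below 900 and −0.56 for the 3 of at least 900 bases. Other genes of the same lengths showed the same order with smaller differences, with medians of −0.63 (408 genes), −0.45 (779), −0.14 (935), −0.05 (2052) and 0.11 (10008). Genes for mitochondrial ribosomal proteins lay between, at −2.08 (3), −0.99 (21), −0.58 (16), −0.40 (24) and 0.00 (14), and 61 of these 78 were called lower and 8 higher in Rep2. Across genes, which are not independent replicates, the Spearman correlation of the difference with coding length was 0.88 over the 81 members, 0.70 over the mitochondrial genes and 0.26 over 14182 other genes. With the length of the annotated transcript in place of coding length, the correlations of these sets were 0.59, 0.40 and 0.32. They were thus weaker for the members and the mitochondrial genes and stronger for the other genes.

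Single genes departed from this order. Rpl29 has 480 coding bases and fell by 6.28 (SE 0.07) in Rep2, far below every member of similar length. The value of Rpl41 (75 bases), the shortest protein of the large subunit, was −3.19 and that of the longer Rps28 (207 bases) −3.37. Rps27 and its paralogue Rps27l both have 252 coding bases, but Rps27 fell by 3.02 and Rps27l by 1.82. Among ribosomal proteins that the symbol rule leaves out, Fau (3446 and 3470 CPM in Rep1, 710 and 821 CPM in Rep2), made as a fusion with a ubiquitin-like protein, was lower in Rep2. Rack1, a longer protein of the small subunit, was higher, at 1398 and 1437 CPM in Rep1 and 2085 and 1954 CPM in Rep2. Both libraries of Rep2 lay on the same side of both libraries of Rep1 for each of these genes.

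**Figure D2:**
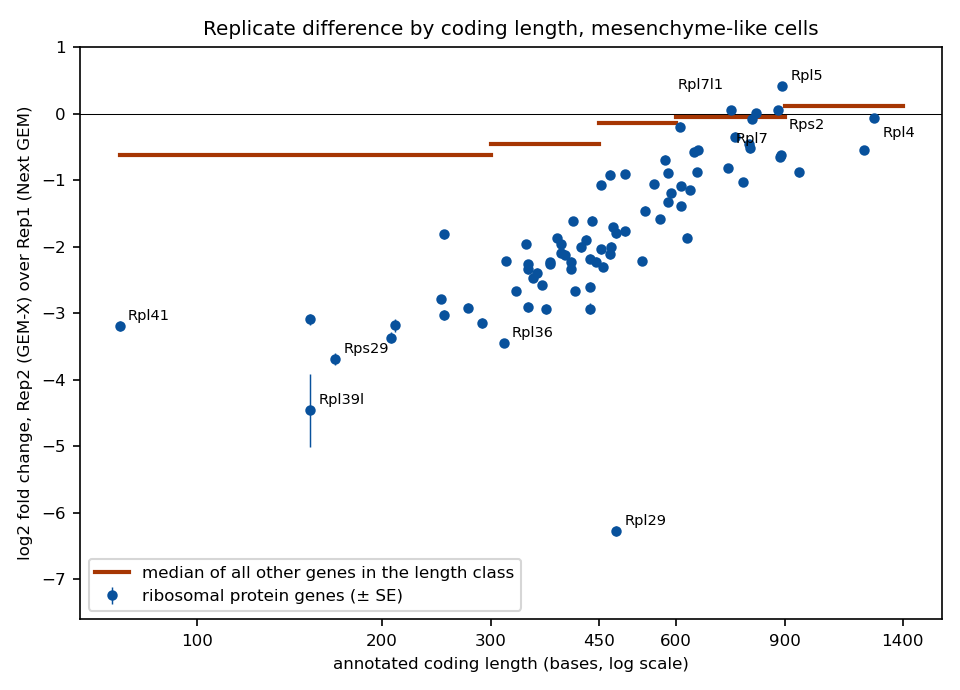
Log2 fold change of Rep2 over Rep1 in mesenchyme-like cells (y axis) against annotated coding length in bases (x axis, log scale), with 1 blue point and its standard error for each of the 81 members tested and brown lines for the median of all other genes in a length class. The class medians of the members rise from −3.15 under 300 bases to −0.56 at 900 or more, and Rpl29 lies alone at −6.28.

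Differences between cell types within the libraries were smaller. Each of 11 groups with at least 50 cells in every library was tested against the mean of the other groups in a single edgeR fit with the library as a block. In neuronal-like cells all 80 tested members were called lower (53.3% of all genes were called in either direction), with a median of −0.22 against 0.00 for all genes. Posterior second heart field cells had 70 members lower and Rps27l higher (35.3% of all genes called), with a median of −0.14. In cluster 20 all 80 were called higher (34.2%), with a median of 0.43 against −0.07 for all genes.

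The remaining groups were less uniform. Mesenchyme-like cells had 58 members lower (43.7% of all genes called; median −0.11) and endothelium-like cells 71 higher (69.5%; median 0.14). MLP-like cells had 22 lower (46.6%), cluster 10 had 13 lower (35.9%), and epithelium-like cells had 14 lower and 1 higher (55.0%). In BrM-like cells 5 members were higher (38.1%), namely Rpl13a, Rpl37, Rpl15, Rpl34 and Rps24, by 0.08 to 0.14, but without cKO replicate 2 or without the library as a block none was called. The aSHF-like cells had 6 higher and 1 lower (37.2%), and cluster 0 had 6 higher and 2 lower (45.4%).

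Scaling decided part of this. With library totals or upper quartile factors the 71 endothelial calls became 13 higher and 8 lower (upper quartile), 17 higher and 8 lower (totals) or 17 higher and 7 lower (totals without the members), while the median of all genes there moved to between −0.17 and −0.15. In these fits 71.3%, 71.1% and 71.1% of all genes were called. The mesenchyme calls became 27 or 34 with library totals (44.4% and 43.9% of all genes called) and 3 without a filter on low counts (28.3%). In neuronal-like cells 79 or 80 members and in cluster 20 all 80 were called in each of these scalings. Without the library as a block, which leaves the difference between replicates in the error, 5 neuronal and 13 cluster 20 members were called and at most 3 in any other group.

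**Figure D3:**
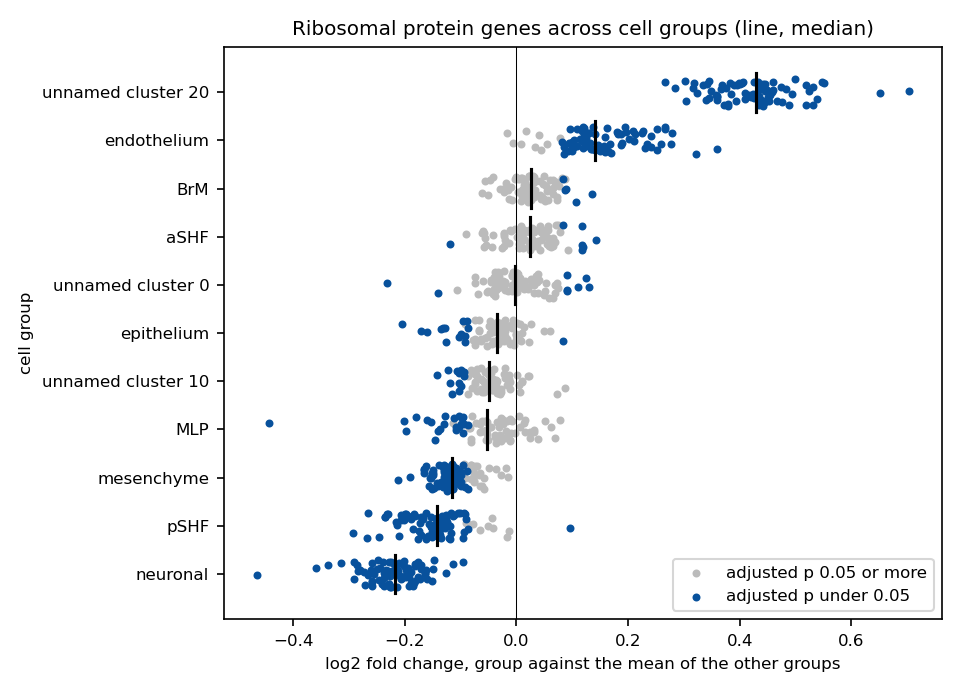
Log2 fold change of each tested member in a cell group against the mean of the other groups (x axis) by group (y axis), with 1 point per gene, blue where the adjusted p was under 0.05 and grey otherwise, and a line at the median. The medians run from −0.22 in neuronal-like cells to 0.43 in cluster 20, and endothelium, with 71 members called here, has 21 to 25 called with upper quartile factors or library totals.

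Of the 4 widest ranges over groups among members of at least 10 CPM, 3 belonged to paralogues (Rps27l, Rpl7l1 and Rpl22l1) and 1 to Rpl4. Rps27l, a p53-responsive paralogue of Rps27, had the widest, from −0.44 (SE 0.03, edgeR) in MLP-like cells to 0.70 (SE 0.04) in cluster 20. It was lower in cluster 0 (−0.23) and neuronal-like cells (−0.17), and higher in endothelium (0.15), pSHF-like cells (0.10) and epithelium (0.08). In MLP-like cells it stood at 574 and 553 CPM in cHet and cKO of Rep1 and at 186 and 203 CPM in Rep2. The corresponding levels in pSHF-like cells were 792, 766, 268 and 282 CPM, so the MLP-like cells were lower than the pSHF-like cells in each of the 4 libraries. Rps27 itself, by contrast, was called higher in cluster 20 and lower in neuronal-like, pSHF-like and mesenchyme-like cells and in cluster 10, and its MLP value was 0.08 (adjusted p = 0.0567, edgeR).

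Rpl7l1, a gene similar to Rpl7, had the lowest value of any member in neuronal-like cells, −0.47 (SE 0.06), against −0.20 (SE 0.04) for Rpl7. Its neuronal levels were 108 and 119 CPM in Rep1 and 95.2 and 92.4 CPM in Rep2, against 123 and 127 CPM, then 165 and 161 CPM in mesenchyme-like cells, so the gap was wider in Rep2. The neuronal-like group itself differed between replicates, with neuronal markers summing to 1890 and 1994 CPM in Rep1 and 6890 and 7271 CPM in Rep2, and mesenchyme markers to 525 and 391 CPM, then 185 and 210 CPM. Rpl22l1, the paralogue of the RNA-binding Rpl22, was lower in neuronal-like cells (−0.36), epithelium (−0.21), pSHF-like cells (−0.18) and MLP-like cells (−0.11), and higher in endothelium (0.25) and cluster 20 (0.42). Rpl22 was not called in epithelium (0.03) or MLP-like cells (−0.02).

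Among members without a named paralogue here, Rpl4, which lines the exit tunnel of the large subunit, ranged from −0.27 in neuronal-like cells to 0.65 in cluster 20. It stood at 891, 919, 912 and 884 CPM in neuronal-like cells and at 1128, 1272, 1844 and 1649 CPM in cluster 20, in the order of libraries above, and the groups did not overlap within a replicate. Rpl34, Rplp0 and Rplp1 (the last pair being stalk proteins that recruit translation factors), Rpl6 and Rpl13 also belonged to the 10 members with the widest range, and in each the highest group was cluster 20. Their lowest group was the neuronal-like cells, except for Rplp1 with −0.25 in pSHF-like and −0.24 in neuronal-like cells. In endothelium Rpl4 (0.15), Rpl6 (0.13) and Rplp0 (0.14) were called higher with TMM but turned to values just below 0 with upper quartile factors, Rpl6 and Rplp0 also with library totals.

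In the fit by cell type, 25.0% of all genes were called lower and 28.3% higher in neuronal-like cells, 16.5% lower and 18.8% higher in pSHF-like cells, and 18.1% higher in cluster 20, and the counts of related gene lists are read against these. Of 39 ribosome biogenesis genes (fixed list: small nucleolar RNP proteins, RNA polymerase I subunits, assembly factors), 31 were called lower and 2 (Efl1 and Rrn3) higher in neuronal-like cells, with a median of −0.26, and 35 were called higher in cluster 20, with a median of 0.62. Of 16 other genes with TOP mRNAs (the 15 above, such as the elongation factors Eef1a1 and Eef2, and the noncoding Gas5), 13 were lower in neuronal-like cells and 15 were higher in cluster 20. Mitochondrial ribosomal genes numbered 40 lower and 4 higher of 78 in neuronal-like cells and 74 higher in cluster 20. The lists differed in pSHF-like cells, where 70 members but only 4 biogenesis genes were lower (7 were higher; median 0.05), 8 TOP genes were lower and 3 higher, and 16 mitochondrial ribosomal genes were higher and 6 lower. These pSHF shares of mitochondrial and biogenesis genes lay near or below those of all genes. G2/M genes, which mark dividing cells, were lower in neuronal-like cells for 10 of 14 and higher in cluster 20 for 8 (Mki67 lower), and p53 targets were higher in neuronal-like cells for 6 of 12, among them Cdkn1a. Of the MYC factors, Mycn and Myc were called higher in cluster 20 and lower in neuronal-like cells. The replicates differed for Mycn, which stood in neuronal-like cells at 32.0 and 39.4 CPM in Rep1, above the 30.1 and 29.1 CPM of all cells, and at 15.5 and 28.4 CPM in Rep2, below the 53.5 and 61.4 CPM of all cells. The part of cell division in the levels of the members was not tested.

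A paralogue's share of the UMIs of its pair was also given per library, since it does not depend on scaling. Rps27l made up 33.5% (95% interval 33.4 to 33.7) and 32.1% (32.0 to 32.3) of the Rps27 and Rps27l UMIs in cHet and cKO of Rep1 over all cells, and 54.2% (53.9 to 54.6) and 51.0% (50.7 to 51.3) in Rep2. MLP-like cells had the lowest share in every library (27.3%, 25.4%, 46.5% and 43.3%) and cluster 20 the highest (39.7%, 39.2%, 61.8% and 56.0%). In each of the 11 groups of the cell type fit, the share was lower in cKO than in cHet in both replicates, by 0.09 to 2.59 percentage points in Rep1 and by 2.16 to 5.73 in Rep2. The 11 groups of a replicate share the same pair of libraries and are not independent. The intervals of cHet and cKO overlapped in 7 of the 11 groups in Rep1 and in 3 in Rep2. The smallest difference was that of endothelium in Rep1 (35.4% and 35.3%). Cardiac muscle-like cells, with too few cells for that fit, went the other way in Rep1, from 32.8% (31.5 to 34.2) in cHet to 36.9% (34.5 to 39.3) in cKO. Over all cells Rps27 stood at 1394 CPM in cHet and 1447 CPM in cKO of Rep1, and at 197 and 248 CPM in Rep2. Rps27l stood at 704 and 685 CPM, then 233 and 258 CPM, so it was lower in cKO in Rep1 and higher in Rep2. With the filter on low counts neither gene was called by genotype.

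Rpl22l1 made up 46.3% and 47.4% of its pair in Rep1 and 34.9% and 34.6% in Rep2. Epithelium was lowest in 3 libraries (42.4%, 43.6% and 30.2%), and neuronal-like cells in cKO Rep2 (30.5%). Its share was higher in cKO in 10 of the 11 groups in Rep1 but lower in 8 of 11 in Rep2, so the replicates did not share a direction. Rpl7l1 made up 5.69% and 5.81% of its pair in Rep1 and 5.98% and 5.78% in Rep2, and was lowest in neuronal-like cells of Rep2 (4.12% and 4.13%). Rpl36al, which the symbol rule leaves out, made up 37.5% and 36.6% of its pair with Rpl36a in cHet and cKO of Rep1 over all cells. In Rep2 it made up 33.4% and 33.2%. The other 3 paralogues were close to absent.
Rpl39l, a testis-enriched paralogue of the tunnel protein Rpl39, had 46, 94, 10 and 20 UMIs in the 4 libraries, at most 0.0232% of its pair over all cells. Endothelium-like cells had its highest share in each library, 0.0891%, 0.0494%, 0.223% and 0.180%, on 21, 10, 8 and 8 UMIs. Rpl3l, known from heart and skeletal muscle, had 7, 7, 15 and 11 UMIs. Rpl10l, known from the testis, had 0, 1, 0 and 1 UMI.

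**Figure D4:**
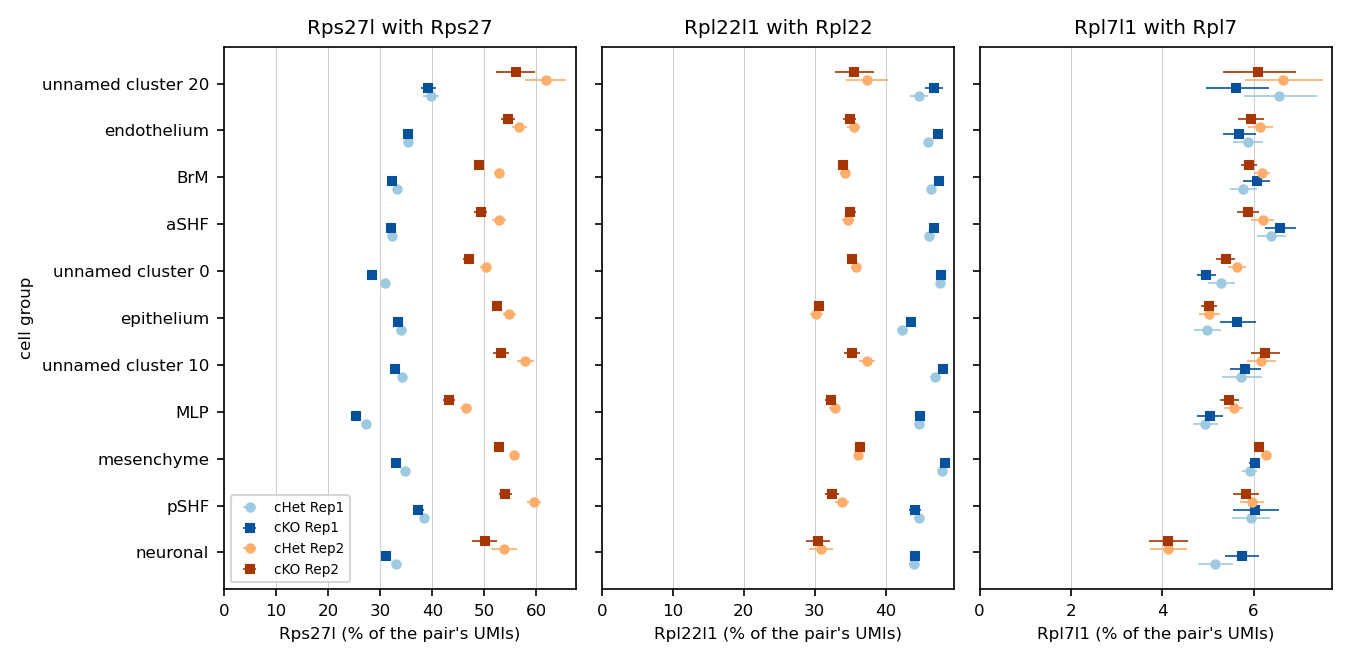
Share of a paralogue in the UMIs of its pair (x axes, %) for Rps27l, Rpl22l1 and Rpl7l1 by cell group (y axis), with circles for cHet, squares for cKO, blue for Rep1, orange to brown for Rep2 and lines for exact binomial 95% intervals. The Rps27l share is lower in cKO than in cHet in all 11 groups of both replicates, and is higher in Rep2 than in Rep1, whereas the Rpl22l1 share is lower in Rep2. The groups of a replicate share the same pair of libraries and are not independent.

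The question of the study, what loss of the second Kmt2d allele changes, was asked of the members within each replicate in BrM-like, neuronal-like, pSHF-like and mesenchyme-like cells and in single clusters, with the replicate as a block. No member was called by edgeR in any of the 12 groups, and none by DESeq2. Over all genes 0.253% were called in BrM-like, 0.0704% in neuronal-like, 0.245% in pSHF-like and 1.04% in mesenchyme-like cells. In the clusters the percentages were 0.825 (cluster 0), 0.649, 0.394, 0.411, 1.39 and 0.662 (mesenchyme clusters 1, 2, 4, 7 and 11), 1.13 (cluster 10) and 0.156 (cluster 20). At an unadjusted p under 0.05, edgeR gave 12 of 80 members in BrM-like cells, 9 in neuronal-like cells, 4 in pSHF-like cells and 9 of 81 in mesenchyme-like cells, and DESeq2 gave 8, 1, 1 and 7. At that threshold edgeR gave 7.61%, 5.77%, 5.45% and 9.51% of all genes and DESeq2 2.05%, 0.751%, 0.720% and 2.57%, so the pSHF-like and mesenchyme-like counts by edgeR lay near the share of all genes.

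The values leaned upwards in 3 of the 4 types. The median log2 fold change (cKO over cHet) was 0.08 in BrM-like cells with 73 of 80 members above 0, 0.06 in neuronal-like cells with 66, and 0.04 in mesenchyme-like cells with 61 of 81, against 0.01, 0.01 and 0.00 for all genes. In pSHF-like cells it was −0.01 with 35 of 80 above 0, against −0.01 for all genes. Library totals left the medians of the first 3 types above 0 (0.05, 0.04 and 0.03) and moved that of pSHF-like cells to 0.00.

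Within replicates the medians were higher in Rep2 in these 4 types. Depth and mitochondrial share moved with genotype in opposite directions in the replicates. In BrM-like cells the median depth was 21036 UMIs in cHet and 26537 in cKO of Rep1, and 22375 and 18124.5 in Rep2, and the mitochondrial share was 2.01% and 1.84%, then 1.30% and 1.45%. Mesenchyme-like cells gave 2.25% and 2.04%, then 1.29% and 1.41%. Blood markers in BrM-like cells summed to 11.6 and 29.4 CPM, then 1.99 and 6.58 CPM. In the study's list of pools, the somite range of cKO lay within that of cHet in Rep1. In Rep2 it lay at or above the upper end of the cHet range. The part of these in the member values was not tested. BrM-like cells had a median of 0.05 in Rep1 (70 of 80 members higher in cKO) and of 0.11 in Rep2 (73 higher), and 63 members were higher in both. Neuronal-like cells had 0.03 (69 higher) and 0.07 (62 higher), with 56 higher in both. The medians of all genes were 0.02 in Rep1 in both types and 0.00 in Rep2. A count higher in both replicates, here and below, depends on the counts within each replicate. It therefore does not show agreement of single genes, and the matching counts over all genes are not given. In mesenchyme-like cells the replicates differed in direction, with −0.01 in Rep1 (27 of 81 higher) and 0.10 in Rep2 (73 higher), and 25 were higher in both. In pSHF-like cells they were −0.05 (19 of 80 higher) and 0.03 (50 higher), with 14 higher and 25 lower in both. Cluster 20 went the other way, with 0.24 in Rep1 (79 higher) and −0.03 in Rep2 (31 higher). Between its cHet and cKO cells of Rep1 the endothelial markers went from 292 to 28.3 CPM and the median depth from 10962 to 28328 UMIs. With at least 4000 genes per cell its Rep1 shares were 24.4% and 25.4%, a smaller gap than the 24.1% and 26.6% above. With every cell thinned to the same number of UMIs they were 23.7% and 27.5%, a wider gap. The settings thus moved the gap in opposite directions. As a share of all UMIs, the members were above cHet in cKO in 7 of 19 types and clusters in Rep1. In Rep2 they were above in all 19, where the difference was 0.0076 percentage points in cluster 20 and 0.032 in pSHF-like cells, with overlapping intervals. In Rep1 the intervals of cardiac muscle-like cells, counted as higher, overlapped too. The 19 groups are not independent, since mesenchyme-like cells count as a pool and again as single clusters, and all share the same libraries. With thinned cells, neuronal-like (21.3% and 21.1%), endothelium-like (23.1% and 23.0%) and cardiac muscle-like cells (18.0% and 17.2%) turned lower in cKO in Rep1. BrM-like cells (23.156% and 23.162%), MLP-like cells (22.88% and 22.91%), mesenchyme cluster 4 (21.99% and 22.16%) and cluster 20 stayed higher. Without thinning the Rep1 gap was 0.072 percentage points in BrM-like and 0.348 in MLP-like cells, so thinning left little of it in these types.

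**Figure D5:**
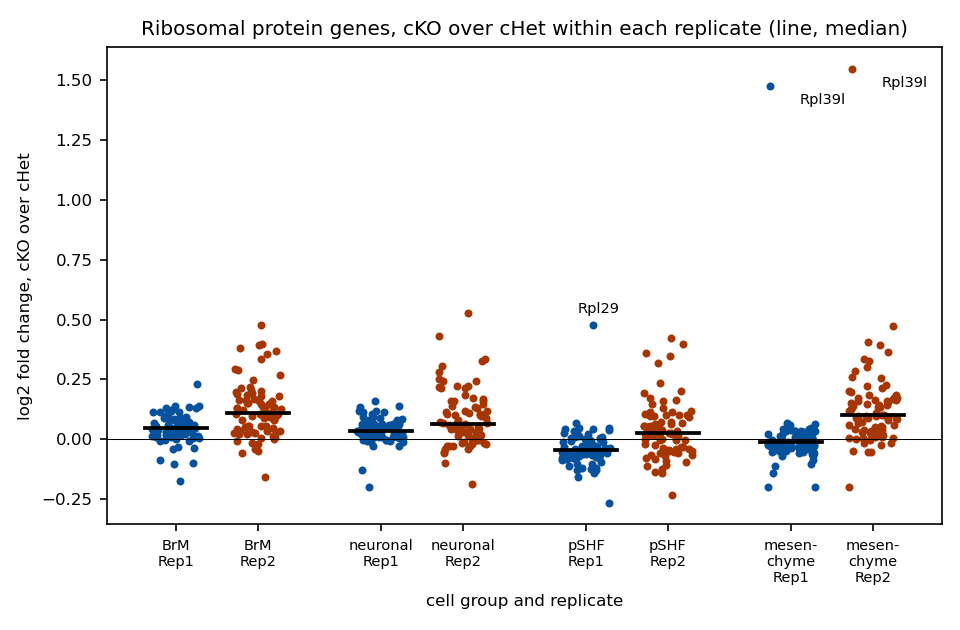
Log2 fold change of cKO over cHet (y axis) for each tested member within Rep1 (blue) and Rep2 (brown) of 4 cell types (x axis), with a line at the median. Medians lie between −0.05 and 0.05 in Rep1 and between 0.03 and 0.11 in Rep2, and Rpl39l (mesenchyme-like cells) and Rpl29 (pSHF-like cells, Rep1) stand apart.

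The Rep2 values were highest in the short members and fell with length. In mesenchyme-like cells of Rep2 the medians were 0.33 for members under 300 coding bases, 0.14, 0.09 and 0.05 in the next length classes and −0.01 for at least 900 bases, while other genes of the same lengths had medians of 0.05, 0.03, 0.00, 0.00 and −0.01. BrM-like cells of Rep2 gave 0.35 for members under 300 bases and 0.01 for those of at least 900 bases. The Spearman correlation of the genotype difference with coding length was −0.66 in BrM-like, −0.56 in neuronal-like, −0.60 in pSHF-like and −0.67 in mesenchyme-like cells within Rep2, and −0.12, −0.34, −0.12 and −0.20 within Rep1 (80 or 81 members, which are not independent and share the same pair of libraries). Within Rep2, in the same order of types, it was −0.003, 0.026, −0.002 and −0.055 over the other genes. Over the mitochondrial ribosomal genes it was 0.026, 0.075, −0.11 and −0.23. Single members departed from the order by length, since Rpl41, the shortest, had 0.16 and Rps27l 0.17 in mesenchyme-like cells of Rep2, below the longer Rpl24 with 0.28 and Rpl35 with 0.33 (Rpl24 and Rpl35 were chosen after their values were seen).

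Rpl38, a protein of the large subunit known for its part in the translation of Hox mRNAs and in skeletal patterning, had the smallest p of the members in BrM-like cells, with a log2 fold change of 0.30 (SE 0.08, adjusted p = 0.230, edgeR), and in neuronal-like cells, with 0.31 (SE 0.09, adjusted p = 0.352, edgeR). It was chosen after its values were seen. Within Rep1 it differed by 0.13 in BrM-like and 0.14 in neuronal-like cells, and within Rep2 by 0.48 and 0.53. Over all cells of Rep1 it reached 1585 CPM in cHet and 1627 CPM in cKO, and over those of Rep2 187 CPM and 257 CPM. Rps27 and Rpl39 behaved alike, with Rps27 at 0.04 and 0.33 and Rpl39 at 0.04 and 0.36 within Rep1 and Rep2 of mesenchyme-like cells. For Rpl39 the Rep1 cells gave 2515 CPM in cHet and 2620 CPM in cKO, and the Rep2 cells 335 CPM and 424 CPM. In Rep2 the cKO value of each of these genes was above the cHet value, but none passed the adjusted threshold. With cells thinned to 5000 UMIs, Rpl38 and Rpl37 were called higher in cKO in BrM-like cells (1.03% of all genes called), and with a doubled doublet share Rpl38 and Rps29 in mesenchyme cluster 4 (1.63%).

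The call depended on the filter. When every gene with at least 1 UMI entered the fit, 8 members were called in BrM-like cells, 2 in neuronal-like, 2 in pSHF-like and 10 in mesenchyme-like cells, each of them higher in cKO and most of them short (7, 2, 1 and 8 had under 300 coding bases). In these fits 1.88%, 1.19%, 0.707% and 2.25% of all genes tested were called. The 8 of BrM-like cells were Rpl35, Rpl37, Rpl37a, Rpl38, Rpl39, Rps27, Rps28 and Rps29, and the 10 of mesenchyme-like cells were the same genes with Rpl39l and Rps26. Rpl38 and Rpl39 were called in neuronal-like and Rpl29 and Rpl38 in pSHF-like cells.

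Rpl29 had the smallest p of the members in pSHF-like cells, with a log2 fold change (cKO over cHet) of 0.36 (SE 0.08, adjusted p = 0.170, edgeR). It was called there with a doubled doublet share (0.707% of all genes called), with clustering at resolution 0.5 (1.18%) and without the filter on low counts. It stood there at 1132 CPM in cHet and 1599 CPM in cKO of Rep1 and at 23.6 CPM (261 UMIs) and 25.6 CPM (268 UMIs) in Rep2. Mesenchyme-like cells gave 1437 and 1418 CPM in Rep1 and 22.0 and 23.9 CPM in Rep2. Whether the genotype difference itself differed between a type and mesenchyme-like cells was tested in a fit over both. Rpl29 was the 1 member called for pSHF-like against mesenchyme-like cells, with a difference of 0.40 (SE 0.06, adjusted p = 0.000154, edgeR), against 0.744% of all genes. The difference was 0.50 within Rep1 and −0.02 within Rep2, so it rested on the Rep1 libraries. For BrM-like and neuronal-like against mesenchyme-like cells no member was called (0.559% and 0.0969% of all genes were). The 8 cardiac muscle markers of pSHF-like cells summed to 315 CPM in cHet and 843 CPM in cKO of Rep1 and to 481 and 753 CPM in Rep2, with Nppa at 0 in both cKO libraries, and their part in the Rpl29 values was not tested.

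The lowest p in mesenchyme-like cells was that of Rpl39l, whose log2 fold change of 1.76 (SE 0.51, adjusted p = 0.183, edgeR) rested on 12, 60, 0 and 5 UMIs. Its call depended on the filter, since it was among the 10 members called when every gene with at least 1 UMI entered. Rpl5, the 1 member called higher in Rep2 than in Rep1 with TMM scaling, had genotype values of 0.02 and −0.06 within Rep1 and Rep2 of BrM-like cells and of −0.04 and −0.05 in mesenchyme-like cells.

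The lists around the ribosome held few genotype calls. Of 39 ribosome biogenesis genes, none was called, and 25 were above 0 in BrM-like, 23 in neuronal-like, 4 in pSHF-like and 18 in mesenchyme-like cells, with medians of 0.02, 0.01, −0.09 and 0.00. Among 78 mitochondrial ribosomal genes 52, 39, 28 and 35 were above 0, also with no call. None of the p53 targets tested, 12 in BrM-like cells and 11 in each other type, was called, and 5, 1, 4 and 6 were above 0. Myc, a factor that drives ribosome production, was called higher in cKO in BrM-like cells, at 13.2 and 19.1 CPM in cHet and cKO of Rep1 and 25.03 and 40.3 CPM in Rep2. It was also called in mesenchyme-like cells, at 15.8 and 19.2 CPM in Rep1 and 34.1 and 44.8 CPM in Rep2, so cKO exceeded cHet in both replicates of both types. In pSHF-like cells, where it was not called, it stood at 11.1 and 7.22 CPM in Rep1 and at 12.4 and 14.7 CPM in those of Rep2, and the replicates went in opposite directions.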

How the data were processed

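The authors deposited 1 matrix of UMI counts per library, raw whole numbers for each gene in each barcode, made with Cell Ranger (version 7.0.1 in the headers of Rep1, 8.0.1 in those of Rep2 and in the labels), with mm10 as the genome in the labels. The study's later steps (SoupX, scDAPP) are not in these counts. Totals were 179454146 to 234726019 UMIs per library. Barcodes with at least 3000 genes, at most 10% mitochondrial and 5% hemoglobin UMIs were kept, and simulated-doublet scores removed 4.03 to 5.78% at the expected rate per kit. Cells were clustered (scanpy 1.11.5, 2000 variable genes without the members, 30 components, resolution 0.8) into 22 clusters, which were named "X-like" where at least 3 fixed markers stood out. UMIs were summed per library and group and tested with edgeR 4.0.16 (quasi-likelihood, TMM, filter on low counts, Benjamini-Hochberg over all genes). DESeq2 1.42.0 was an alternative. Intervals and floors cover counting error only.

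The replicate entered the genotype fits as a block, because the labels tie the replicate to a kit. Samples with the same number also deviated together from their group means (correlation 0.575 to 0.845 over genes, 12 groups). Nothing separates the embryos of a pool, so p-values rest on 2 libraries per genotype and do not measure the spread between embryos. With the replicate as a block, the genotype p-values set the difference of cKO from cHet against an error estimated partly over other genes. With 2 libraries per genotype, these p-values and standard errors say little on how far a single gene agreed between replicates. With the library as a block, the cell type p-values measure how far differences between groups varied between libraries. Members and lists were chosen with earlier results of these data known. Named genes were both genes of each paralogue pair, the 5 highest and 5 lowest replicate differences in mesenchyme-like cells and the 10 widest ranges over groups (at least 10 CPM), and the 3 highest levels. Positions and first bases come from GENCODE M21 (32158 of 32285 identifiers, all 83 members). Alternatives were other scalings, no filter, thinning to 5000 UMIs, at least 4000 genes, doubled doublet share, resolution 0.5, other blocks, DESeq2 and leaving out each replicate. The scripts were tested on simulated data. Some results are not reported here because they concern withheld items.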

Additional observations from a re-analysis of the deposited data

Results flagged for a closer look

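The genotype difference (cKO over cHet, log2 scale) of Rpl29 was larger in pSHF-like than in mesenchyme-like cells by 0.40 (SE 0.06, adjusted p = 0.000154, edgeR), which a test of the difference itself called. Within Rep1 the values were 0.48 and −0.03, and within Rep2 0.11 and 0.14. Of the 50-base words in the last 400 bases of Rpl29, 65.8% occur in 58 other annotated genes. The part of these copies was not tested.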

How the results depend on the processing

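The number of members called between replicates, both directions together, stayed within 1.5 times under the alternatives run, but library totals gave 6 or 7 members higher in Rep2 in 7 of the 8 groups, against 1 with TMM. By genotype, with 0 members called as the reported value, the filter of at least 1 UMI gave 8 (BrM), 2 (neuronal), 2 (pSHF), 10 (mesenchyme) and 29 in the other clusters together, in which 0.325 to 1.68% of all genes were called. The mesenchyme clusters among these repeat cells of the mesenchyme pool. Thinning gave 2 (BrM, Rpl37 and Rpl38), a doubled doublet share gave 1 (pSHF, Rpl29) and 2 (mesenchyme cluster 4, Rpl38 and Rps29, with 1.63% of all genes called), and resolution 0.5 gave 1 (pSHF, Rpl29). Without the replicate block 0 members were called by genotype in every group. The median genotype difference ranged over the alternatives from 0.05 to 0.11 (BrM), 0.01 to 0.07 (neuronal), −0.05 to 0.03 (pSHF) and −0.01 to 0.10 (mesenchyme).

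For the cell type counts, every gene with at least 1 UMI gave 8 (BrM, 5 as reported), 3 (mesenchyme, 58) and 12 (MLP, 22). Upper quartile factors gave 12 (MLP) and 21 (endothelium, 71). Library totals gave 10 (BrM), 27 (mesenchyme), 17 (cluster 0, 8), 18 (aSHF, 7), 25 (endothelium) and 9 (epithelium, 15), and totals without the members gave 9, 34, 18, 18, 24 and 8 in these groups and 13 in MLP. Thinning gave 4 (cluster 10, 13), 9 (MLP), 3 (aSHF), 30 (endothelium) and 8 (epithelium). At least 4000 genes per cell gave 13 (BrM), 17 (cluster 0), 24 (cluster 10), 36 (MLP), 29 (aSHF) and 23 (epithelium), a doubled doublet share 9 (epithelium), and DESeq2 2 (BrM) and 23 (cluster 10). Without the library block the counts were 0 (BrM, mesenchyme, clusters 0 and 10, aSHF, epithelium), 5 (neuronal, 80), 1 (pSHF, 71), 13 (cluster 20, 80), 1 (MLP) and 3 (endothelium). Leaving out each library gave 0 to 10 (BrM), 34 to 69 (mesenchyme), 4 to 9 (cluster 0), 3 to 23 (cluster 10), 11 to 26 (MLP), 3 to 9 (aSHF) and 6 to 14 (epithelium). The lowest counts came without cKO replicate 2 (BrM, mesenchyme, cluster 10, aSHF), cHet replicate 2 (MLP, aSHF) or cKO replicate 1 (cluster 0, epithelium). The causes were not tested.

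The Rep1 share of 22.4 or 22.5% became 22.36% (thinned), 22.40% (4000 genes) and 22.47% (doubled doublets). In endothelium Rpl4 turned to −0.0061 (upper quartile), Rpl6 to −0.024, −0.015 and −0.0094 and Rplp0 to −0.017, −0.0079 and −0.0024 (upper quartile, totals, totals without members). By genotype, where none was called, Rpl29 turned to 0.012 (4000 genes) in neuronal-like cells, where leaving out a replicate gave −0.026 to 0.0012, and to −0.0018 (thinned) and −0.025 (no replicate block) in mesenchyme-like cells, where leaving out a replicate gave −0.027 to 0.14. Rps27 in pSHF-like cells ranged from −0.0022 to 0.40 with a replicate left out. Of 741 single-gene cell type values under alternatives, 142 lost their call and 7 changed direction. Pooled embryos, 2 libraries per genotype and unresolved gene copies limit all results.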
